A study of Mus musculus with 45 samples.

Results

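Forelimb buds of CD1 mouse embryos, kept in organ culture with the vehicle DMSO alone, were compared after 48 h and after 24 h over all genes measured. Libraries were taken by treatment and culture time, which gave 5 libraries of DMSO 48 h and 5 of DMSO 24 h, or 10 of the 45 libraries of the series. The limbs of both groups were dissected at gestation day 13, pooled without regard to the embryos' sex, and cultured in BGJb medium with ascorbic acid and gentamycin in bottles gassed with 50% oxygen. The solvent was given to both groups, and neither received bisphenol S (BPS), a bisphenol A substitute that the other culture bottles of the study received at 10 or 50 µM. An excised limb has no blood flow and no connection to the nerve cell bodies of the embryo, and a library of pooled limbs stands for no single embryo.

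At this age most of the limb skeleton is cartilage. In endochondral ossification, chondrocytes first divide and lay down a matrix of collagen II and aggrecan, then enlarge into hypertrophic cells that make collagen X, and their matrix is resorbed and replaced by bone from osteoblasts. Indian hedgehog from the maturing chondrocytes and parathyroid hormone-related protein from the ends of the element set the pace of this sequence. Around the skeleton, muscle, tendon and skin take on their mature gene sets, while the transcription factors that laid out the limb's axes act mainly earlier.

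The values are read counts per gene, printed as CPM (counts scaled to a common total of reads mapped to genes) after adjustment for library composition. Libraries held 16.6 to 21.6 M reads at 48 h and 15.7 to 18.8 M reads at 24 h. A count of 3 reads, the floor used here, corresponds to 0.139 to 0.18 CPM at 48 h and 0.16 to 0.191 CPM at 24 h. The marker genes were those of a forelimb. Tbx5, the forelimb selector gene, averaged 227 ± 22 CPM at 48 h and 306 ± 11.4 CPM at 24 h (SD, n = 5 each). The hindlimb genes were far lower, with Tbx4 at 27.9 ± 1.94 CPM at 48 h and 26.8 ± 1.69 CPM at 24 h and Pitx1 at 3.63 ± 0.967 CPM at 48 h and 4.41 ± 1.16 CPM at 24 h. None of the 4 tested genes of hindlimb identity passed the test. Markers of limb mesenchyme, cartilage, muscle, tendon, endothelium, macrophages, red cells and epidermis were all present in both groups. The mature osteoblast hormone gene Bglap (osteocalcin) was at or near the floor, and so was the osteoclast fusion gene Ocstamp. Replicate 1 of the 48 h group stood apart from the other libraries on the second principal component, and replicate 3 of that group had the lowest summed levels of cartilage and muscle genes. The relation of a library's deviation to gene length also differed, with Spearman coefficients across 16694 genes of -0.39, -0.14, 0.29, -0.00 and 0.31 in 48 h replicates 1 to 5 and -0.16, -0.11, -0.02, -0.07 and 0.23 in 24 h replicates 1 to 5. The log2 fold change itself had a coefficient of -0.16 with gene length, and the part of this in the results was not tested. In whole limbs, fewer cells of a type and less RNA per cell cannot be told apart.

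Of 16694 genes tested, 2670 (16%) differed between DMSO 48 h and DMSO 24 h at a Benjamini-Hochberg adjusted p below 0.05 in edgeR's quasi-likelihood test, which is the rule for every "rose" and "fell" below. They comprised 1576 genes that rose (9.44%) and 1094 that fell (6.55%). Most differences were small, with a median absolute log2 fold change of 0.46 among the called genes. At least 2-fold differences were seen for 393 called genes (2.35%), and these were mostly rises, 337 (2.02%) against 56 falls (0.335%). The 5 values of one group lay entirely above or below the 5 of the other for 2145 genes (12.8%), above in 1241 (7.43%) and below in 904 (5.42%). The median log2 fold change over all tested genes was -0.01, against which the medians of the gene groups below can be read. Counts of 3 or fewer genes of a list moved by up to 3 genes when single libraries were left out. Among protein-coding genes 17.9% were called, against 8.19% of lincRNA genes and 2.91% of antisense genes. Antisense reads cannot be told from those of the opposite strand, since the labels name no strand-keeping step.

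**Figure D1:**
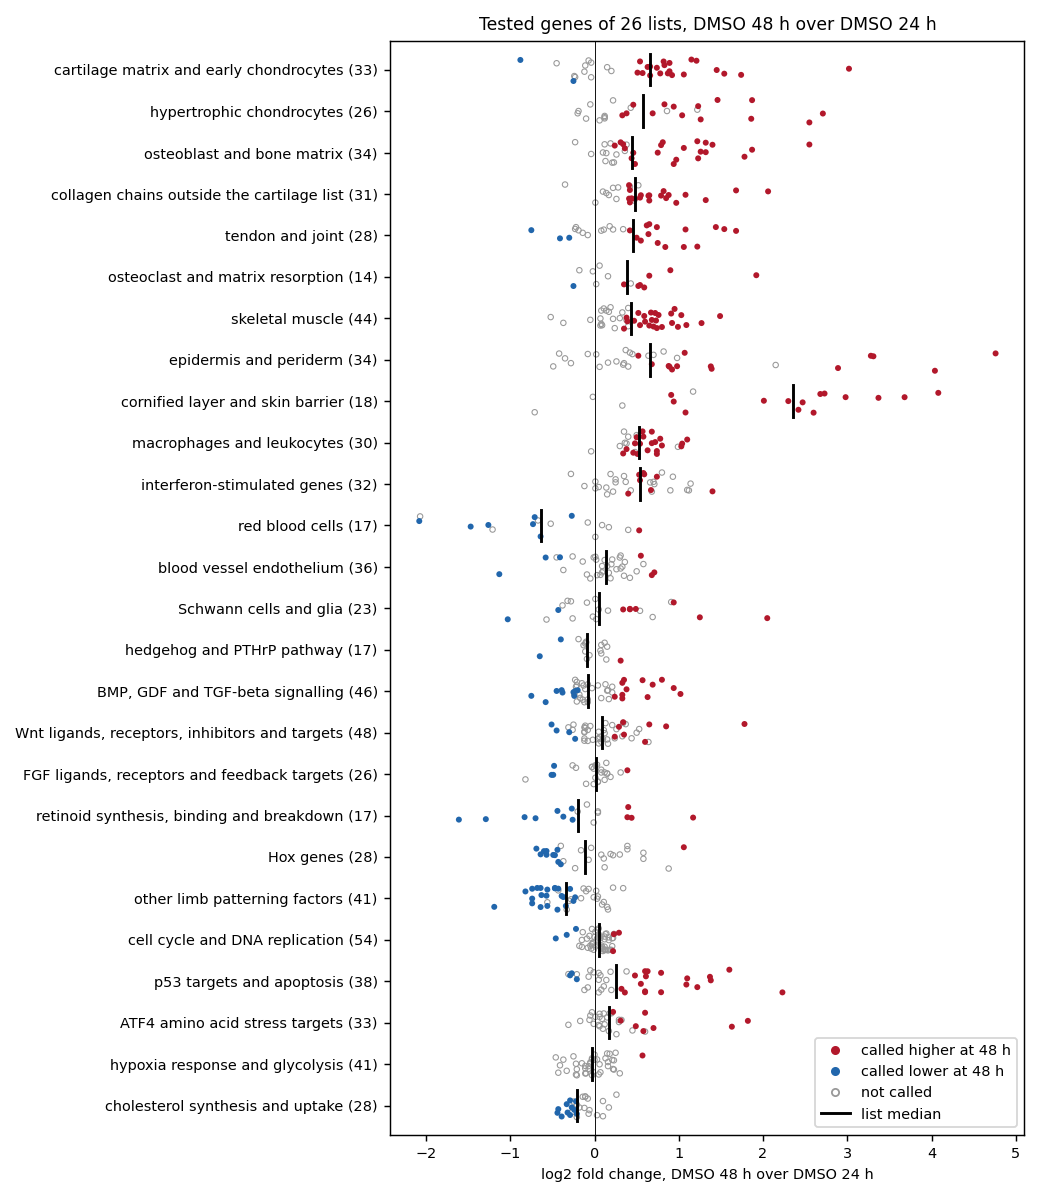
Log2 fold change of DMSO 48 h over DMSO 24 h (horizontal axis) for the tested members of 26 gene lists (rows); each point is a gene, filled points passed the test, and the bar marks the list's median. The tested cornified layer genes lie farthest to the right with a median of 2.36. They are only 18 of 53 listed, and a gene near 0 at 24 h is among them only through its 48 h level. That median is therefore not comparable with those of the other lists. Bone, cartilage, collagen and macrophage genes lie mostly right of 0, and limb patterning, cholesterol and red blood cell genes mostly left of it.

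Most cartilage matrix genes rose. Of 33 tested genes of the cartilage matrix and its chondrocytes, 21 rose (63.6%) and 2 fell (6.06%), with a median log2 fold change of 0.66. Col2a1 (ENSMUSG00000022483, mm10 chr15:97975602-98004695, minus strand), which encodes collagen II, stood at 11887, 10619, 7394, 10415 and 10013 CPM in 48 h replicates 1 to 5, against 6714, 6185, 6418, 6278 and 6196 CPM in the 24 h libraries. The groups did not overlap, although 48 h replicate 3 lay well below the other 48 h libraries, and the log2 fold change was 0.66 ± 0.104 (SE, adjusted p = 0.000366). Acan, which encodes aggrecan, the large proteoglycan that binds water in cartilage, stood at 584 to 869 CPM at 48 h and 395 to 421 CPM at 24 h, a log2 fold change of 0.89 ± 0.087 (adjusted p = 4.15e-06). Comp, a matrix protein that joins collagen fibres, was at 316 ± 65.5 CPM at 48 h and 108 ± 7.41 CPM at 24 h, a 2.91-fold rise (log2 1.54 ± 0.114, adjusted p = 6.04e-07). Itga10, a collagen II receptor subunit of chondrocytes, rose 2.22-fold, to 76.3 ± 13.7 CPM at 48 h against 34.3 ± 1.71 CPM at 24 h (SD, n = 5 each). The largest rise of the group was that of Ucma, a protein of young chondrocytes, at a low level: 3.9 to 7.95 CPM at 48 h against 0.427 to 0.823 CPM at 24 h (log2 3.02 ± 0.265, adjusted p = 1.73e-06).

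No such rise was measured for the transcription factors known to drive these matrix genes. Sox9, the master regulator of cartilage, stood at 379, 412, 380, 426 and 425 CPM in the 48 h libraries and at 502, 464, 476, 489 and 474 CPM in the 24 h libraries. All 48 h values were below all 24 h values, and Sox9 fell by 0.25 ± 0.061 on the log2 scale (adjusted p = 0.00837). Its partners had log2 fold changes of -0.11 ± 0.107 for Sox5 (adjusted p = 0.539) and -0.24 ± 0.080 for Sox6 (adjusted p = 0.0538). The Sox6 difference, just short of the threshold, passed it in DESeq2 (adjusted p = 0.047), with all 45 libraries in the fit (adjusted p = 0.0184), without 24 h replicate 1 (adjusted p = 0.0466) and without 48 h replicate 5 (adjusted p = 0.0172).

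Genes of hypertrophic cartilage and of bone matrix showed some of the largest changes. Of 26 tested hypertrophic chondrocyte genes 14 rose (53.8%) and 0 fell, with a median of 0.57, and of 34 tested osteoblast and bone matrix genes 22 rose (64.7%) and 0 fell, with a median of 0.45. Both lists hold Ibsp, Alpl, Spp1, Dmp1 and Sgms2. The rise of Sgms2 (log2 0.46, adjusted p = 0.036) was lost without 24 h replicate 1, 2 or 5, without 48 h replicate 1, 2 or 3 and without a filter on low counts, whereas both lists' counts of rises moved by less than 1.5 times. Col10a1 (ENSMUSG00000039462, mm10 chr10:34389981-34397085, plus strand), the collagen X gene that marks hypertrophic chondrocytes, was at 266, 217, 109, 151 and 59.2 CPM in the 48 h libraries and at 16.7, 15.6, 42.2, 31.1 and 16.4 CPM in the 24 h libraries. The 48 h libraries varied widely among themselves, yet the lowest of them exceeded the highest 24 h library, and the rise was 6.54-fold (log2 2.71 ± 0.487, adjusted p = 0.00634). Ibsp (ENSMUSG00000029306, mm10 chr5:104299171-104311469, plus strand), bone sialoprotein, which nucleates mineral, stood at 542, 446, 564, 395 and 271 CPM at 48 h and 66.8, 71.6, 96.1, 98.6 and 43.6 CPM at 24 h. The groups were far apart, and the rise was 5.87-fold (log2 2.55 ± 0.271, adjusted p = 0.000236). In both genes 48 h replicate 5 was the lowest of its group. The promoters of these genes, the 250 bases before the RefSeq start on the gene strand in GRCm38.p6, are shown because both genes were among the strongest rises of the skeletal lists. Capitals mark a TATA box (TATAAA on the gene strand) 32 bases before the start in Col10a1 at chr10:34389731-34389980 and a CCAAT box (CCAAT on either strand) 54 bases before the start in Ibsp at chr5:104299037-104299286. The Ibsp window runs past the deposited gene start at 104299171, so its CCAAT box lies inside the deposited gene.
Col10a1: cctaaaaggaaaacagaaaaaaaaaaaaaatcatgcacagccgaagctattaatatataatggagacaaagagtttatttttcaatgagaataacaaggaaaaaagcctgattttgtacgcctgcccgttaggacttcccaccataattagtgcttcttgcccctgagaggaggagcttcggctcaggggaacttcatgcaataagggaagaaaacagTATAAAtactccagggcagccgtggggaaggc
Ibsp: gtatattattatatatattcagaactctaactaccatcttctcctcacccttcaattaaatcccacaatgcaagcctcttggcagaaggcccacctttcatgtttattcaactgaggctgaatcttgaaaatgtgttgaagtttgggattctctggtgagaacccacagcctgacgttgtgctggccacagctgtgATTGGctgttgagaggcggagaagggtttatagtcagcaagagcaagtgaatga

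Of 27025 genes with a RefSeq promoter, 8.94% held TATAAA and 37.5% held CCAAT in such a window. The core letters bound by RUNX factors, ACCACA on either strand, were in 15.9% of them. They were in 3 of 13 risen hypertrophic genes and in 4 of 15 risen bone genes that had a promoter in the table. These motif searches were chosen after the expression values were known.

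Other genes of mineralising tissue moved the same way. Alpl, the phosphatase that frees phosphate for mineral, was at 79.2, 62.9, 70.6, 64.3 and 55.3 CPM at 48 h and 28.1, 26.5, 33.8, 26.9 and 23.2 CPM at 24 h, and rose 2.39-fold (log2 1.26 ± 0.104, adjusted p = 1.07e-06). Spp1, osteopontin, a secreted phosphoprotein of bone, rose 2.34-fold, to 28.2 ± 3.02 CPM at 48 h against 12 ± 2.52 CPM at 24 h. Sp7, the transcription factor that osteoblasts require, stood at 31.9 to 50.8 CPM at 48 h and 21.3 to 30.5 CPM at 24 h (log2 0.75 ± 0.121, adjusted p = 0.000456). Runx2, which acts upstream of Sp7, was at 60 to 80 CPM and 57.7 to 63.1 CPM, and its log2 fold change of 0.10 ± 0.078 did not pass (adjusted p = 0.45). Genes of osteocytes, the bone cells buried in matrix, were near the detection limit at 24 h. Dmp1 stood at 3.09 ± 1.19 CPM at 48 h against 0.84 ± 0.263 CPM at 24 h (log2 1.87, adjusted p = 0.000437). Sost, a Wnt inhibitor, stood at 1.66 ± 0.583 CPM at 48 h against 0.475 ± 0.0641 CPM at 24 h (log2 1.78, adjusted p = 0.000933). Mmp13, the collagenase of late hypertrophic cartilage, was at 0.588 to 1.98 CPM at 48 h and 0.122 to 1.23 CPM at 24 h, and its log2 fold change of 1.22 ± 0.476 did not pass (adjusted p = 0.098). Without 24 h replicate 3, which held the highest 24 h value, Mmp13 had a log2 fold change of 1.98 and an adjusted p of 0.00849. Clec11a, a secreted growth factor of bone-forming cells, rose 2.76-fold (adjusted p = 4.16e-06). Loxl4, a lysyl oxidase family member that crosslinks collagen, rose 3.64-fold (adjusted p = 9.44e-06).

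**Figure D2:**
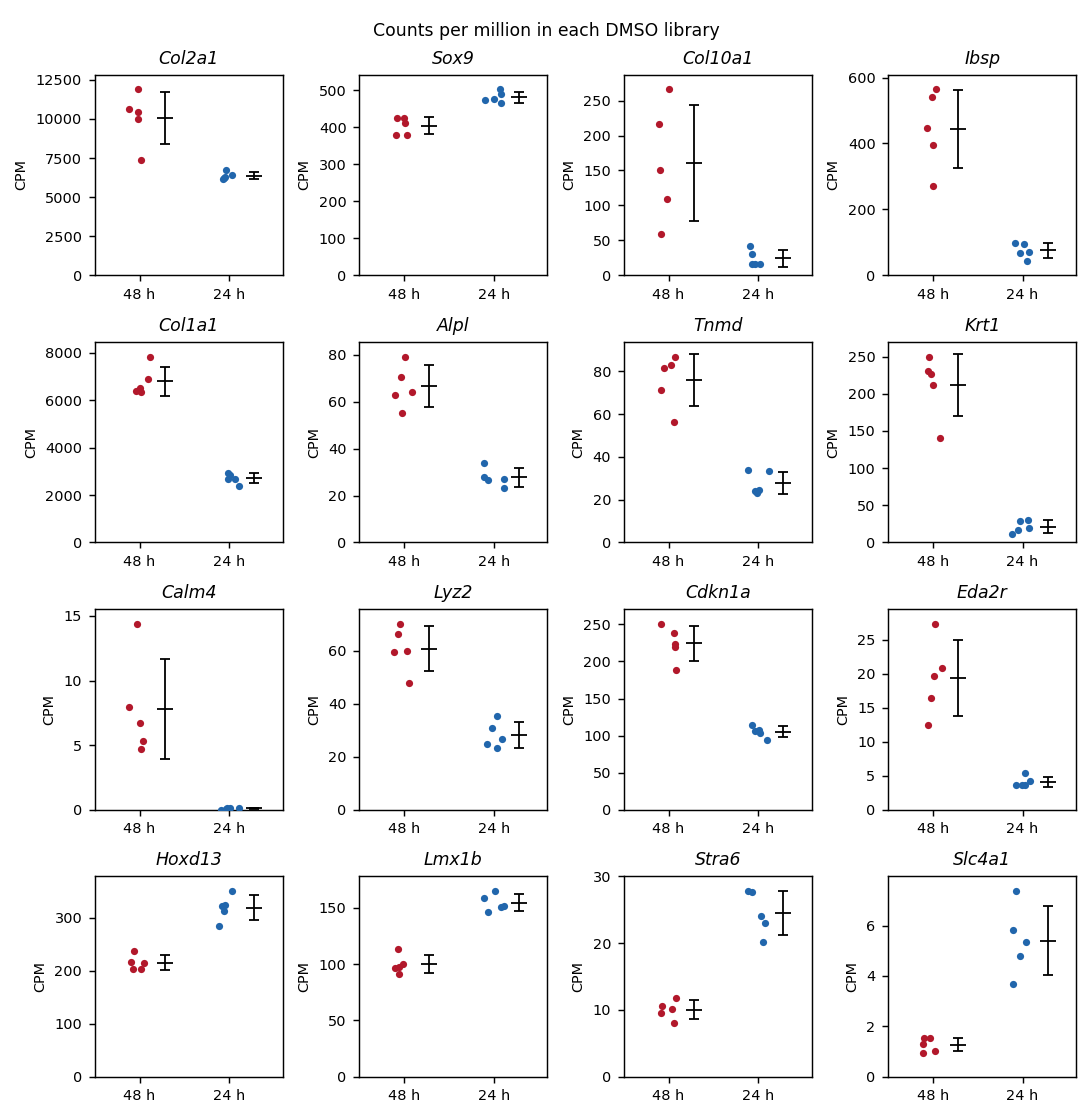
CPM of 16 genes in each library (vertical axes, linear from 0), with the 5 DMSO 48 h libraries left of the 5 DMSO 24 h libraries; points are libraries, and the bar and whiskers are the mean ± SD. Col10a1 spreads from 59.2 to 266 CPM at 48 h but stays above the 24 h maximum of 42.2 CPM, while Sox9, Hoxd13, Lmx1b, Stra6 and Slc4a1 are lower in all 48 h libraries.

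Of 31 tested collagen chains outside the cartilage list 20 rose (64.5%), 0 fell and 11 did not pass, with a median of 0.48. The 48 h values lay entirely above the 24 h values for 20 of the 31 tested, against 7.43% of all genes. Col1a1 (ENSMUSG00000001506), a chain of collagen I of bone, tendon and dermis, was at 7845, 6524, 6900, 6373 and 6354 CPM in the 48 h libraries and 2952, 2667, 2692, 2850 and 2401 CPM in the 24 h libraries. The 5 libraries of each group lay close together, and Col1a1 rose 2.5-fold (log2 1.32 ± 0.083, adjusted p = 6.79e-08). Col1a2, the other collagen I chain, rose 1.96-fold, and Sparc, a collagen-binding matrix protein, rose 2.08-fold. Col1a1 and Col1a2 are also on the bone matrix list. Per kb of the deposited gene length, Col1a1 reached 1036 CPM at 48 h against 413 CPM at 24 h. Col2a1 reached 1089 CPM at 48 h against 688 CPM at 24 h. In these levels, the gap between the genes was smaller at 48 h than at 24 h. Its size depends on the deposited lengths, 6563 bases for Col1a1 and 9243 for Col2a1, which were not checked against the mRNAs.

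Of 28 tested tendon and joint genes 15 rose (53.6%) and 3 fell (10.7%), with a median of 0.46. Some of these genes count in other lists too, Comp in the cartilage list and Col14a1 and Col22a1 in the collagen list. Tnmd, tenomodulin, a membrane protein of mature tendon cells, stood at 86.9, 82.8, 56.5, 71.4 and 81.7 CPM at 48 h and 24.5, 24.2, 33.8, 33.3 and 23.3 CPM at 24 h. Its rise was 2.72-fold without overlap (log2 1.44 ± 0.131, adjusted p = 3.41e-06). Col22a1, a collagen of the junction between muscle and tendon, was at 50.7 to 60.1 CPM at 48 h and 15 to 20.1 CPM at 24 h (log2 1.68 ± 0.085, adjusted p = 7.47e-09). Aspn, asporin, a small proteoglycan of the matrix around cartilage, rose 2.08-fold (adjusted p = 2.06e-08), and Col14a1, a collagen on the surface of fibrils, rose 2.12-fold (adjusted p = 1.96e-07). Scx, the transcription factor of tendon progenitors, stood at 116 ± 13.7 CPM at 48 h and 99.8 ± 10.1 CPM at 24 h (adjusted p = 0.0992). It passed without 48 h replicate 3 (adjusted p = 0.0338) and without a filter on low counts (adjusted p = 0.0493). Gdf5, the growth factor of the forming joint, was at 52.1, 41.4, 52, 36.5 and 37.5 CPM at 48 h and 74.4, 74.9, 79.4, 73.6 and 64.2 CPM at 24 h, and fell by 0.75 ± 0.100 on the log2 scale (adjusted p = 8.93e-05). Erg, a transcription factor of joint cartilage that endothelium also expresses, fell by 0.41 ± 0.067 (adjusted p = 0.000519). The third gene that fell was Sfrp2, a Wnt antagonist, with a log2 fold change of -0.30 (adjusted p = 0.0338). Of the single libraries left out, this call held only without 24 h replicate 5, 48 h replicate 1 or 48 h replicate 3.

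Of 17 tested genes of the hedgehog and parathyroid hormone-related protein pathways, which pace the growth plate, 1 rose (5.88%) and 2 fell (11.8%), with a median of -0.09. These shares are near those of all genes, 9.44% and 6.55%. Ihh, the ligand, was at 55.7, 43.9, 29.9, 41.3 and 38.3 CPM at 48 h and 48.8, 47.5, 60.1, 45.7 and 35.1 CPM at 24 h, with overlapping groups and a log2 fold change of -0.19 ± 0.154 (adjusted p = 0.459). Pthlh, the ligand that holds chondrocytes in the dividing state, had 10.3 ± 1.03 CPM at 48 h and 9.24 ± 1.77 CPM at 24 h (adjusted p = 0.523). Its receptor gene Pth1r had 155 ± 24.5 CPM at 48 h and 143 ± 12.2 CPM at 24 h (adjusted p = 0.435). The hedgehog target genes Ptch1 (log2 -0.10 ± 0.110, adjusted p = 0.605) and Gli1 (log2 0.07 ± 0.077, adjusted p = 0.581) did not pass. The genes that fell were Gli2 and Gli3, transcription factors of the same family as Gli1. Gli2 fell by 0.40 ± 0.061 (adjusted p = 0.000303). Gli3, mainly a repressor, fell by 0.65 ± 0.101 (adjusted p = 0.000341). Its level was 125, 139, 191, 145 and 181 CPM at 48 h and 224, 238, 250, 248 and 265 CPM at 24 h, without overlap.

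Other growth factor families were mixed. In BMP, GDF and TGF-beta signalling 12 of 46 tested genes rose (26.1%) and 9 fell (19.6%), with a median of -0.08. Ltbp2, a microfibril protein of the latent TGF-beta binding family, rose 2.03-fold (adjusted p = 6.04e-07), and the ligand gene Tgfb1 rose 1.74-fold, to 46.7 to 67.1 CPM at 48 h against 25.8 to 38.1 CPM at 24 h (adjusted p = 0.000139). Tgfbi, a secreted TGF-beta target, fell by 0.45 ± 0.065 (adjusted p = 0.000197). Of 48 Wnt genes 8 rose (16.7%) and 4 fell (8.33%), with a median of 0.09, and without 24 h replicate 2, 24 h replicate 3 or 48 h replicate 4 the falls numbered 2. Lgr6, a receptor for Wnt-enhancing R-spondins, rose 1.8-fold (adjusted p = 0.000108) and the receptor gene Fzd9 1.52-fold (adjusted p = 0.000147), while the receptor gene Fzd4 fell by 0.51 ± 0.083 (adjusted p = 0.000523). Fgf10, the mesenchymal growth factor of limb outgrowth, was at 17.9 to 21.3 CPM at 48 h and 25.8 to 30.1 CPM at 24 h, and fell by 0.48 ± 0.079 (adjusted p = 0.00051). It was 1 of 3 falls (11.5%) among 26 tested FGF genes, of which 1 rose (3.85%), and among 17 Notch genes 1 rose (5.88%) and 2 fell (11.8%). With so few genes, these are near the shares of all genes, 9.44% that rose and 6.55% that fell. With all 45 libraries in the fit 5 FGF genes fell and 3 rose, and 5 Notch genes rose.

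In the insulin-like growth factor system, which sets growth rate, Igf1 rose 1.4-fold, to 184, 216, 225, 223 and 266 CPM at 48 h against 151, 174, 126, 160 and 183 CPM at 24 h (log2 0.48 ± 0.104, adjusted p = 0.00431). The lowest 48 h library lay just above the highest 24 h library. Igfbp7, a secreted protein of the binding protein family, rose 2.32-fold (adjusted p = 4.03e-06), and Pappa2, a protease that frees the factors from their binding proteins, rose 1.79-fold (adjusted p = 0.000252). Irs2, an adaptor of the insulin and IGF receptors, fell by 0.45 ± 0.093 (adjusted p = 0.00279). In all, 7 of 19 tested genes rose (36.8%) and 1 fell, but the count of rises was 3 without 24 h replicate 3 or 24 h replicate 4, and 4 without 24 h replicate 5, 48 h replicate 2 or 48 h replicate 4. Of 25 imprinted growth genes, 11 rose (44%) and 2 fell (8%), a count of rises that was 4 without 24 h replicate 3 or 24 h replicate 4 and 5 without 48 h replicate 2 or 48 h replicate 4. Dlk1, a Notch-related membrane protein of progenitors, rose 1.72-fold, to 1418 to 1973 CPM at 48 h against 824 to 1168 CPM at 24 h (adjusted p = 7.95e-05), and Zim1, a zinc finger gene, rose 1.78-fold (adjusted p = 0.000152). Nnat, neuronatin, stood at 177 to 222 CPM at 48 h and 295 to 373 CPM at 24 h and fell by 0.71 ± 0.076 (adjusted p = 9.94e-06).

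Among proteases and their inhibitors, changes went both ways. Timp1, an inhibitor of matrix metalloproteinases, was at 44.5, 35.1, 22.3, 24.2 and 18.7 CPM at 48 h and 7.4, 7.79, 9.28, 9.12 and 6.29 CPM at 24 h. It rose 3.61-fold without overlap (log2 1.85 ± 0.221, adjusted p = 9.37e-05), while Mmp14, a membrane-bound collagenase, rose 1.28-fold and Mmp11, stromelysin-3, fell by 0.41 ± 0.061 (adjusted p = 0.00021). Over the 30 tested proteases and inhibitors 8 rose (26.7%) and 7 fell (23.3%), with a median of 0.09. The falls numbered 2 without 48 h replicate 2 or 48 h replicate 4, 3 without 24 h replicate 3 and 4 without 24 h replicate 4. The rises numbered 5 without 24 h replicate 4, 24 h replicate 5 or 48 h replicate 2. Of 40 genes of glycosaminoglycan synthesis, which build the sugar chains of cartilage, 8 rose (20%) and 3 fell (7.5%), with a median of 0.10; Chst12, which sulfates chondroitin, rose 1.49-fold (adjusted p = 0.000769). Those rises numbered 4 without 48 h replicate 4 and 5 without 24 h replicate 1, 24 h replicate 4 or 48 h replicate 2.

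Many genes that pattern the limb fell. Of 28 tested Hox genes 10 fell (35.7%) and 1 rose (3.57%), with a median of -0.11, and of 41 other limb patterning factors 22 fell (53.7%) and 0 rose, with a median of -0.34. Hoxd13 (ENSMUSG00000001819, mm10 chr2:74668310-74671599, plus strand), which specifies the digits, was at 203, 215, 238, 203 and 216 CPM at 48 h and 313, 285, 351, 324 and 322 CPM at 24 h. No 48 h library reached any 24 h library, and Hoxd13 fell by 0.57 ± 0.067 on the log2 scale (adjusted p = 2.27e-05). Its neighbours Hoxd12 (by 0.69 ± 0.066, adjusted p = 3.41e-06) and Hoxd10 (by 0.49 ± 0.069, adjusted p = 0.000139) fell too, as did Hoxa13, the other digit gene (by 0.64 ± 0.089, adjusted p = 0.000113). The Hox gene that rose, Hoxb7, was low, at 0.975 ± 0.113 CPM at 48 h and 0.459 ± 0.217 CPM at 24 h (log2 1.06 ± 0.327, adjusted p = 0.0358). Of the single libraries left out, the call held only without 24 h replicate 1 or 48 h replicate 3, and it was also lost without a filter on low counts (adjusted p = 0.0699) and with all 45 libraries in the fit (adjusted p = 0.0518). Lmx1b, which specifies the dorsal side, stood at 96.9, 91.6, 113, 97.6 and 100 CPM at 48 h and 165, 151, 152, 159 and 146 CPM at 24 h and fell by 0.63 ± 0.064 (adjusted p = 6.04e-06). Lhx9, a factor of limb outgrowth, fell by 0.74 ± 0.079 (adjusted p = 9.53e-06). Sall1, a zinc finger factor of the distal limb, fell by 0.64 ± 0.078 (adjusted p = 3.69e-05), and Hmga2, a chromatin protein of embryonic cells, by 0.74 ± 0.064 (adjusted p = 1.57e-06). Tbx5 fell by 0.44 ± 0.070 (adjusted p = 0.000441) with no overlap between groups.

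Retinoid genes, which make, carry and break down the vitamin A signal of the early limb, included some of the largest falls: 8 of 17 tested fell (47.1%) and 4 rose (23.5%), with a median of -0.20. Stra6 (ENSMUSG00000032327, mm10 chr9:58063788-58153996, plus strand), the cell surface receptor that takes up retinol, was at 10.2, 9.6, 11.8, 10.6 and 8.02 CPM at 48 h and 24, 23, 27.8, 27.7 and 20.1 CPM at 24 h. The groups were well separated, and Stra6 fell by 1.29 ± 0.117 on the log2 scale (adjusted p = 2e-06). Cyp26a1, which degrades retinoic acid, stood at 0.605 ± 0.418 CPM at 48 h and 1.85 ± 0.448 CPM at 24 h (log2 -1.61 ± 0.408, adjusted p = 0.0123). Rbp4, the secreted retinol carrier, rose 2.25-fold, to 17.7 to 22.5 CPM at 48 h against 5.69 to 10.6 CPM at 24 h (adjusted p = 3.23e-05), and Crabp1, which binds retinoic acid, rose 1.36-fold (adjusted p = 0.00105).

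Many of the largest rises of the comparison were those of skin genes. Of 53 listed genes of the cornified layer, the dead outer barrier of the epidermis, 18 had enough reads to be tested; 14 rose and 0 fell, with a median log2 fold change of 2.36. Because a gene that is near 0 at 24 h passes the read filter only through its 48 h level, this count is a description of the tested genes and not of the list. Calm4 (ENSMUSG00000033765, mm10 chr13:3837757-3838673, plus strand), a calmodulin-like protein of differentiating keratinocytes, was at 4.66, 7.95, 5.33, 14.4 and 6.68 CPM at 48 h and 0.114, 0.0633, 0.16, 0.122 and 0 CPM at 24 h. It had 717 reads in the 5 libraries of 48 h against 8 reads in those of 24 h, the largest log2 fold change of all called genes (6.29 ± 0.471, adjusted p = 6.04e-07). Every 24 h value of Calm4 was at or below the floor of 3 reads, so the size of its fold change is uncertain. The stefin gene Stfa3 had the smallest adjusted p of the comparison (6.87e-09), with 24 to 37.7 CPM at 48 h and 2.13 to 3.53 CPM at 24 h (log2 3.37 ± 0.162). Stefin A genes form a cluster of close copies, so reads may be divided uncertainly between Stfa3 and BC100530, which rose 6.05-fold. Casp14, the protease of cornification, stood at 3.96 ± 1.52 CPM at 48 h and 0.304 ± 0.13 CPM at 24 h (adjusted p = 3.02e-06). Dmkn, dermokine, a secreted protein of the upper epidermis, stood at 26.2 ± 10.4 CPM at 48 h and 1.53 ± 0.644 CPM at 24 h (adjusted p = 3.61e-05).

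Of 34 tested genes of the living epidermis and the periderm that covers it, 14 rose (41.2%) and 0 fell, with a median of 0.66. Krt1 (ENSMUSG00000046834, mm10 chr15:101845426-101850794, minus strand), a keratin of suprabasal cells, was at 212, 250, 230, 227 and 141 CPM at 48 h and 30, 29.4, 11.3, 19.8 and 16.1 CPM at 24 h. The lowest 48 h library, replicate 5, was still above every 24 h library, and the rise was 9.93-fold (log2 3.31 ± 0.285, adjusted p = 6.69e-05). Its partner Krt10 rose 9.7-fold (log2 3.28 ± 0.209, adjusted p = 2.83e-06), the related keratin gene Krt77 27-fold (adjusted p = 0.000199), and the desmosome genes Dsc1 16.4-fold (adjusted p = 2.27e-05) and Dsg1a 7.4-fold (adjusted p = 6.04e-07). The basal keratin genes overlapped between groups. Krt5 stood at 150, 161, 208, 142 and 115 CPM at 48 h and 133, 101, 122, 94.2 and 44 CPM at 24 h (log2 0.64 ± 0.280, adjusted p = 0.171), and passed in limma-voom (adjusted p = 0.0498). Krt14 stood at 105 to 156 CPM at 48 h and 57.8 to 131 CPM at 24 h (log2 0.35 ± 0.211, adjusted p = 0.32). Trp63, the transcription factor of the basal layer, had a log2 fold change of 0.26 ± 0.145 (adjusted p = 0.251). Of the libraries left out in turn, only the omission of 24 h replicate 1 let it pass (log2 0.42, adjusted p = 0.0338). The summed level of the epidermis list ran from 913 to 1407 CPM at 48 h and from 344 to 718 CPM at 24 h.

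Most of the tested muscle genes rose. Of 44 tested genes of skeletal muscle 25 rose (56.8%) and 0 fell, with a median of 0.44. The 48 h values lay entirely above the 24 h values for 12 of the 44 tested, against 7.43% of all genes. The troponin gene Tnnt3, of the fast fibre contraction switch, was at 190, 153, 112, 166 and 158 CPM at 48 h and 78.8, 88.9, 53.2, 67.2 and 75.4 CPM at 24 h. Replicate 3 was the lowest library in both groups, and Tnnt3 rose 2.14-fold (log2 1.09 ± 0.146, adjusted p = 0.000225). Cav3, a membrane protein of muscle fibres, rose 2.41-fold (adjusted p = 0.000106), Mybpc1, a myosin-binding protein, 1.93-fold (adjusted p = 0.000189), Cacng1, a calcium channel subunit, 1.98-fold (adjusted p = 0.000161) and Acta1, skeletal actin, 1.74-fold (adjusted p = 0.00135). The muscle transcription factor genes Myod1 and Myog did not pass. Myod1 stood at 99.4 ± 9.68 CPM at 48 h and 102 ± 10.4 CPM at 24 h (adjusted p = 0.755). Myog stood at 200 ± 18.5 CPM at 48 h and 185 ± 18.5 CPM at 24 h (adjusted p = 0.426). Leaving out 48 h replicate 3, the lowest for muscle, gave 28 rises, and leaving out 48 h replicate 1 gave 20.

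Most macrophage genes rose. Of 30 tested genes of macrophages and other leukocytes 20 rose (66.7%) and 0 fell, with a median of 0.53, and the summed level ran from 519 to 676 CPM at 48 h and 338 to 421 CPM at 24 h. Lyz2, lysozyme, was at 70.2, 59.6, 47.7, 59.9 and 66.2 CPM at 48 h and 31, 35.5, 23.4, 24.8 and 26.5 CPM at 24 h. The groups did not overlap, and Lyz2 rose 2.14-fold (log2 1.10 ± 0.120, adjusted p = 1.44e-05). The complement gene C1qc, a product of tissue macrophages, stood at 30.8 to 43.9 CPM at 48 h and 18.2 to 24.5 CPM at 24 h (log2 0.74 ± 0.105, adjusted p = 0.000143). Ms4a7, a macrophage membrane protein, rose 2.05-fold (adjusted p = 9.81e-05). Of 35 lysosome and autophagy genes 13 rose (37.1%) and 0 fell, with a median of 0.12, among them the cathepsin genes Ctsd (1.43-fold), Ctsl (1.31-fold) and Ctss (1.67-fold), the last of which is also on the macrophage list.

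Of the osteoclast genes, which serve the resorption of cartilage and bone, 7 of 14 tested rose (50%) and 1 fell, with a median of 0.39, and the rises numbered 4 without 24 h replicate 4, 24 h replicate 5 or 48 h replicate 1. Ctsk, the collagen-degrading cathepsin of osteoclasts, was at 64.3, 55.5, 52.4, 56.1 and 51.6 CPM at 48 h and 30.8, 30.3, 30.7, 32 and 25.4 CPM at 24 h, and rose 1.87-fold (log2 0.90 ± 0.081, adjusted p = 1.92e-06). Ctsk is also on the lysosome list. Atp6v0d2, a proton pump subunit of osteoclasts, stood at 1.57 ± 0.424 CPM at 48 h and 0.418 ± 0.329 CPM at 24 h (adjusted p = 0.00527). Csf1, the growth factor that macrophages and osteoclasts need, rose 1.57-fold (adjusted p = 1.92e-05), and its receptor gene Csf1r 1.45-fold (adjusted p = 0.00164). Among 19 inflammation genes 5 rose (26.3%) and 0 fell, and 3 rose without 24 h replicate 4. Ptgs2, the inducible prostaglandin synthase, was at 3.56 ± 0.829 CPM at 48 h and 1.34 ± 0.789 CPM at 24 h (adjusted p = 0.0114). Among 32 interferon-stimulated genes 8 rose (25%) and 0 fell, with a median of 0.53, and 5 rose without 24 h replicate 3, 48 h replicate 2 or 48 h replicate 4. B2m, the light chain of class I molecules, rose 1.44-fold (adjusted p = 0.000748).

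Several red cell genes fell. Of 17 tested, 7 fell (41.2%) and 1 rose (5.88%), with a median of -0.64. The falls numbered 4 without 24 h replicate 4, 48 h replicate 4 or 48 h replicate 5 and without a filter on low counts, and 12 with all 45 libraries in the fit. Slc4a1, the anion exchanger of the red cell membrane, was at 1.53, 1.32, 1.52, 1.03 and 0.962 CPM at 48 h and 5.81, 3.67, 4.8, 5.33 and 7.38 CPM at 24 h. The groups were far apart, and Slc4a1 fell by 2.08 ± 0.217 on the log2 scale (adjusted p = 8.16e-06), as did Alas2, the first enzyme of haem synthesis in red cells, by 1.47 ± 0.167 (adjusted p = 1.82e-05). The abundant globin genes varied more between libraries. Hba-a1 stood at 465, 280, 266, 196 and 263 CPM at 48 h and 770, 313, 326, 563 and 365 CPM at 24 h, with overlap and a log2 fold change of -0.67 ± 0.319 (adjusted p = 0.207, and 0.0277 with all 45 libraries in the fit). Globin genes have near copies, so reads may be divided uncertainly among them. Tfrc, the iron uptake receptor, which dividing cells of all kinds also use, was the gene that rose (1.44-fold, adjusted p = 0.000106).

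Among 36 endothelial genes 3 rose (8.33%) and 3 fell (8.33%), with a median of 0.14, near the shares of all genes, 9.44% and 6.55%. The rises numbered 6 without 48 h replicate 5, 5 without a filter on low counts and 7 with all 45 libraries in the fit, which also gave 5 falls. Aplnr, the apelin receptor of sprouting vessels, was at 4.37, 5.39, 5.28, 5.59 and 4.28 CPM at 48 h and 11.6, 11.8, 11.9, 11 and 8.26 CPM at 24 h, and fell by 1.13 ± 0.134 (adjusted p = 2.69e-05). Tek, the angiopoietin receptor, fell by 0.58 ± 0.113 (adjusted p = 0.00202). The general endothelial genes overlapped, with Cdh5 at 87.1 ± 8.9 CPM at 48 h and 76.1 ± 5.16 CPM at 24 h (adjusted p = 0.101). Pecam1 stood at 55.4 ± 10.3 CPM at 48 h and 48.1 ± 6.89 CPM at 24 h (adjusted p = 0.306). Cdh5 passed without 48 h replicate 5 (adjusted p = 0.0421) and with all 45 libraries in the fit (adjusted p = 0.0441). Of 23 Schwann cell and glial genes 7 rose (30.4%) and 2 fell (8.7%), with a median of 0.05. Ngfr, a neurotrophin receptor of Schwann cells, rose 1.34-fold (adjusted p = 0.000206), Egr2, a myelination factor that is also an immediate early gene, rose 1.92-fold (adjusted p = 0.000533), and S100b, which chondrocytes also express, rose 2.38-fold (adjusted p = 0.000136). The neuronal tubulin gene Tubb3 was low in both groups and fell by 0.81 ± 0.188 (adjusted p = 0.00689).

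**Figure D3:**
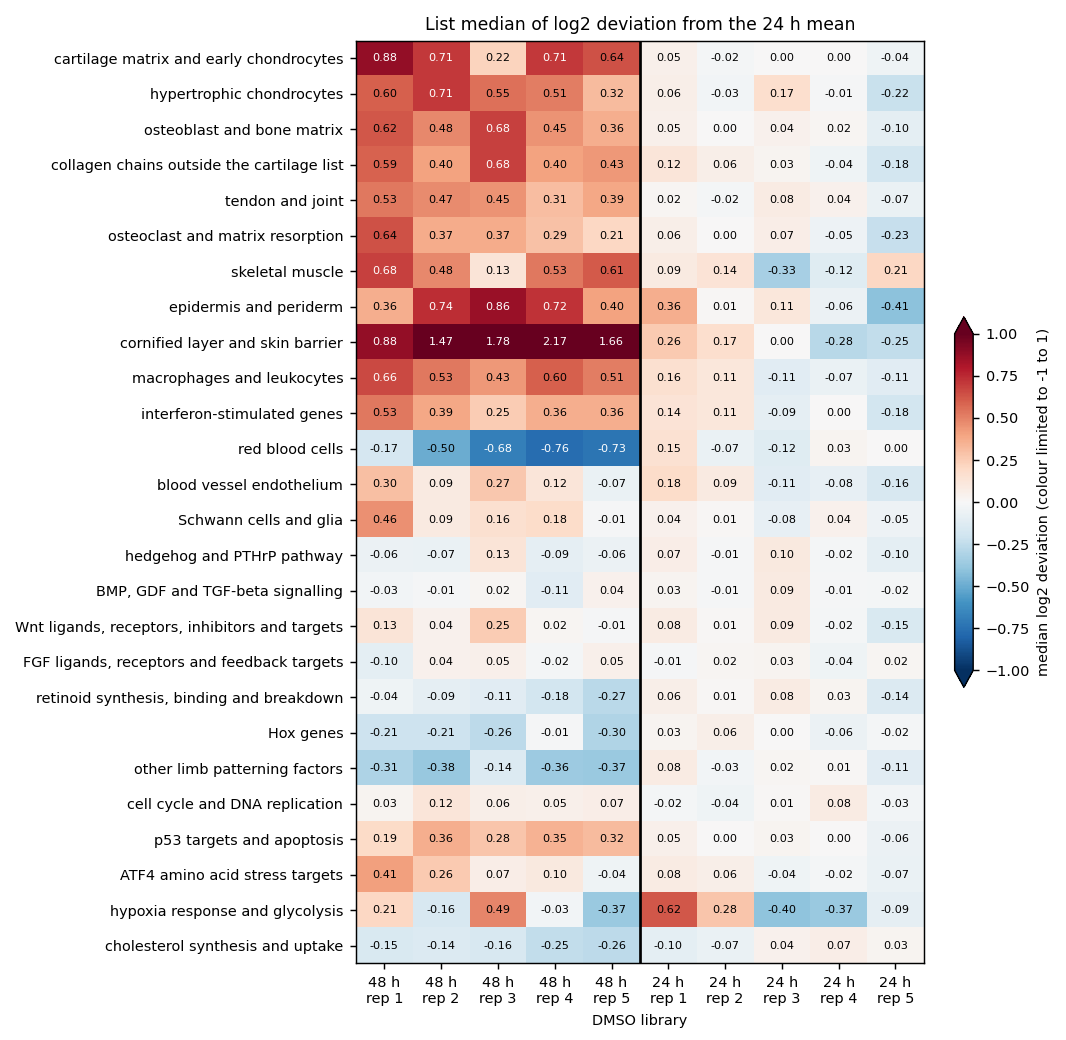
Median log2 deviation of each of 26 gene lists (rows) from its mean over the 5 DMSO 24 h libraries, in every library (columns; DMSO 48 h replicates 1 to 5 left of DMSO 24 h replicates 1 to 5); colour gives the deviation. Cornified layer, bone, collagen and macrophage lists are above 0 in all 5 libraries of 48 h. For the cornified layer list this covers only the genes with enough reads to be tested. The cartilage and muscle lists are weakest in 48 h replicate 3.

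Many targets of p53, the factor that answers DNA damage and other stress, rose. Of 38 tested p53 targets and apoptosis genes 18 rose (47.4%) and 3 fell (7.89%), with a median of 0.26. Without 48 h replicate 2 or 48 h replicate 4, 1 fell. The 48 h values lay entirely above the 24 h values for 16 of the 38 tested, against 7.43% of all genes. Cdkn1a (ENSMUSG00000023067, mm10 chr17:29090976-29100727, plus strand), the p21 inhibitor of cyclin-dependent kinases, was at 224, 251, 189, 239 and 220 CPM at 48 h and 108, 114, 94.4, 103 and 106 CPM at 24 h. The groups were far apart, and Cdkn1a rose 2.13-fold (log2 1.09 ± 0.077, adjusted p = 2.58e-07). The 250 bases before its RefSeq start (GRCm38.p6, chr17:29090729-29090978, plus strand, the first of the windows given for the gene) are shown because Cdkn1a had the smallest adjusted p of this list. Capitals mark 2 matches to the p53 half-site, 73 and 51 bases before the start.
Cdkn1a: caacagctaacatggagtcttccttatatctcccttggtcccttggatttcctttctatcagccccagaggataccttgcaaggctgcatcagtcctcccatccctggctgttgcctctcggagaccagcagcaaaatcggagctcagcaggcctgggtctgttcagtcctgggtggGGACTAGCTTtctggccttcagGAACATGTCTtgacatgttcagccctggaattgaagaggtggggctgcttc

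The half-site was in 8.2% of the 27025 genes' windows, in 5 of 14 risen p53 list genes that had a window and in 4 of 9 fallen cholesterol genes. Other p53 targets rose too. Eda2r, a receptor of the tumour necrosis factor family, was at 12.4, 20.9, 16.5, 19.7 and 27.4 CPM at 48 h and 4.21, 3.67, 3.68, 5.39 and 3.66 CPM at 24 h, a 4.69-fold rise (adjusted p = 1.73e-06). Phlda3, an inhibitor of Akt signalling, rose 2.33-fold (adjusted p = 2.06e-06), Ccng1, cyclin G1, 2.14-fold (adjusted p = 3.5e-06), and Perp, a p53 target that is also a desmosome protein of the epidermis and stands on that list too, 2.6-fold (adjusted p = 1.37e-05). Sesn2, sestrin 2, which is shared with the amino acid stress list, rose 1.52-fold (adjusted p = 7.9e-05).

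Of 54 tested cell cycle genes 3 rose (5.56%) and 3 fell (5.56%), with a median of 0.05, near the shares of all genes, 9.44% and 6.55%. With all 45 libraries in the fit 7 rose, and the rises numbered 1 without 24 h replicate 2, 3 or 4 or 48 h replicate 2 and 0 without 48 h replicate 4. Mki67, a marker of dividing cells, was at 150, 158, 181, 172 and 181 CPM at 48 h and 157, 151, 161, 164 and 186 CPM at 24 h, with a log2 fold change of 0.03 ± 0.072 (adjusted p = 0.818). The D cyclin genes Ccnd1 and Ccnd2, which start the cycle, fell by 0.33 ± 0.073 (adjusted p = 0.00495) and 0.46 ± 0.078 (adjusted p = 0.000662). Of 6 tested genes of cyclin-dependent kinase inhibitors, Cdkn1a and Cdkn2c rose, the second to 18.5 to 19.8 CPM at 48 h against 9.08 to 14.9 CPM at 24 h (adjusted p = 0.00144).

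The lists of stress responses differed in their counts. Of 33 amino acid stress targets of ATF4 8 rose (24.2%) and 0 fell, with a median of 0.17. Nupr1, a small stress-induced chromatin protein, stood at 23.9, 17.1, 12.5, 17 and 11 CPM at 48 h and 4.73, 5.82, 4.32, 4.41 and 3.66 CPM at 24 h and rose 3.54-fold (log2 1.82 ± 0.194, adjusted p = 1.19e-05). Gdf15, a stress-induced cytokine, rose 3.1-fold at a low level (adjusted p = 0.00304). Of 41 hypoxia and glycolysis genes 1 rose (2.44%) and 0 fell, namely Epas1, the hypoxia-inducible factor 2 alpha gene (1.47-fold, adjusted p = 0.00112). Their summed level varied within each group, from 4111 to 6708 CPM at 48 h and from 3883 to 7378 CPM at 24 h. Of 30 chaperone and unfolded protein genes of the endoplasmic reticulum 2 rose (6.67%) and 2 fell (6.67%), near the shares of all genes, 9.44% and 6.55%. The rises numbered 4 without 24 h replicate 1 and in DESeq2 and 6 with all 45 libraries in the fit. Creb3l1, a transcription factor of secretory load in bone cells, rose 1.53-fold (adjusted p = 1.48e-05). Of 27 tested immediate early genes 15 rose (55.6%) and 0 fell, with a median of 0.36. Klf2 and Klf4, factors that respond fast to stimuli, were among them. Klf2 stood at 73.6 to 109 CPM at 48 h and 40.6 to 55 CPM at 24 h (log2 0.87 ± 0.100, adjusted p = 2.01e-05), and Klf4 had a log2 fold change of 0.55 ± 0.085 (adjusted p = 0.00032). Of 25 NRF2 and metal response genes 3 rose (12%) and 2 fell (8%), also near the shares of all genes, and 5 rose without 48 h replicate 3. Of 19 clock genes 3 rose and 0 fell, and 1 rose without 24 h replicate 3. Of 14 tested mitochondrially encoded genes 0 rose and the ribosomal RNA genes mt-Rnr1 (log2 -0.38) and mt-Rnr2 (log2 -0.32) fell, the second not with all 45 libraries in the fit (adjusted p = 0.0533).

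Several cholesterol synthesis genes fell by small amounts. Of 28 tested, 11 fell (39.3%) and 0 rose, with a median of -0.21, and the falls numbered 6 without 24 h replicate 3 and 7 without 24 h replicate 4 or 48 h replicate 2, 4 or 5 and without a filter on low counts. Lss, which closes the sterol rings, was at 48.2, 49.6, 52, 46.3 and 49.2 CPM at 48 h and 57.3, 58.7, 55.9, 64.7 and 58 CPM at 24 h, and fell by 0.27 ± 0.063 (adjusted p = 0.00752). Idi1, an isoprenoid enzyme, fell by 0.44 ± 0.108 (adjusted p = 0.01) and Hmgcs1, the synthase that feeds the pathway, by 0.29 ± 0.071 (adjusted p = 0.0103). The promoter of Hmgcs1 (GRCm38.p6, chr13:119690101-119690350, plus strand) is shown because it holds the sterol element TCACCCCAC, 137 bases before the start, beside CCAAT boxes 237, 176 and 45 bases before it and a p53 half-site at 170 bases, none of which overlap. Capitals mark all 5.
Hmgcs1: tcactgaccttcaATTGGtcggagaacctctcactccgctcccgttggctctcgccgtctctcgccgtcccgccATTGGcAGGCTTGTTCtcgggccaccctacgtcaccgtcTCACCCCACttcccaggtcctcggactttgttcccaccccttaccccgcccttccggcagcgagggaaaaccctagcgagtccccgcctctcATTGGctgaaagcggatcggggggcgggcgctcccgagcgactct

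The sterol element, on either strand, was in 0.555% of the 27025 genes' windows and in 1 of 9 fallen cholesterol genes that had a window, while a CCAAT box was in all 9. Of 28 genes of fatty acid synthesis and lipid storage 4 rose (14.3%) and 5 fell (17.9%). The falls numbered 1 without 24 h replicate 3, 24 h replicate 4 or 48 h replicate 4, 2 without 48 h replicate 5 or without a filter on low counts and 3 without 24 h replicate 2, 48 h replicate 2 or 48 h replicate 3. Lpl, which frees fatty acids from lipoproteins, rose 1.36-fold (adjusted p = 0.000812), and Cebpa, a factor of fat cells and myeloid cells, 1.75-fold (adjusted p = 9.64e-05).

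The step from 24 to 48 h was then set against the step from 3 to 24 h, 24 h and 21 h of culture long. The DMSO 24 h libraries enter both steps, so the steps are not independent and the difference was tested as a single contrast over 15 libraries. Within the earlier step 6642 of 16536 genes (40.2%) were called, and the steps differed for 2004 of 17262 genes (11.6%), 958 higher (5.55%) and 1046 lower (6.06%) in the later step. Of 1973 such genes tested in both steps, 1270 were called in the earlier step and not in the later one, and 228 in the later and not in the earlier. A further 130 rose in the later step after a fall in the earlier, and 158 fell in the later step after a rise in the earlier.

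In the cartilage list 0 of 33 genes were higher and 19 lower, with Col2a1 at 2577, 6358 and 10066 CPM on average at 3, 24 and 48 h and a later step smaller by 0.62 ± 0.153 (log2, adjusted p = 0.00892). Ibsp, at 0.802, 75.4 and 444 CPM, had the more extreme difference, -3.92 ± 0.610 (log2, adjusted p = 0.00107). In CPM, Ibsp nevertheless gained more after 24 h than before, from a low level at 3 h. Col1a1, at 1602, 2712 and 6799 CPM, had instead a later step larger by 0.58 ± 0.124 (adjusted p = 0.00261), and among collagens outside cartilage 11 of 33 were higher and 2 lower. Hedgehog genes had 0 of 18 higher and 9 lower. Ptch1 stood at 136, 246 and 231 CPM (difference -0.93 ± 0.174, adjusted p = 0.00125). Ihh stood at 22.7, 47.5 and 41.8 CPM (difference -1.23 ± 0.245, adjusted p = 0.00261). Runx2 stood at 38.2, 60.7 and 65.2 CPM (difference -0.55 ± 0.126, adjusted p = 0.00529).

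Most cell cycle genes differed between the steps: 49 of 54 were lower at 24 h than at 3 h and 2 higher, and 41 of 54 had a higher later step and 1 a lower one. Of all genes, 20.1% were lower and 20% higher at 24 h than at 3 h. Mki67 averaged 324, 164 and 168 CPM at 3, 24 and 48 h, a difference of steps of 1.03 ± 0.134 (adjusted p = 1.58e-05). ATF4 targets had 21 of 33 higher and 0 lower, with Sesn2 at 68, 32.3 and 49.3 CPM (difference 1.70 ± 0.127, adjusted p = 6.11e-08). Epidermal genes had 14 of 34 higher and 1 lower, with Perp at 36.9, 24.2 and 63.2 CPM (difference 2.01 ± 0.280, adjusted p = 0.000158). Ovol1, a factor of keratinocyte differentiation, stood at 10.1, 1.27 and 2.52 CPM (difference 3.98 ± 0.361, adjusted p = 2.41e-07). Cholesterol genes had 0 of 28 higher and 17 lower, with Lss at 42.6, 58.9 and 49.1 CPM (difference -0.72 ± 0.105, adjusted p = 6.98e-05).

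Further differences of steps were large for single genes. Lyz2 averaged 2.73, 28.2 and 60.7 CPM at 3, 24 and 48 h (log2 difference -2.25 ± 0.220, adjusted p = 7.23e-07). In CPM, Lyz2 gained more after 24 h than before. Among 30 macrophage genes, 10 had a lower later step on the log2 scale and 1 a higher one. Gpnmb, a membrane glycoprotein of macrophages and osteoclasts, averaged 1.01, 43.2 and 64.2 CPM (difference -4.84 ± 0.301, adjusted p = 6.11e-08). Its rise between 24 and 48 h (log2 0.57 ± 0.147, adjusted p = 0.0177) did not pass without 48 h replicate 1 (adjusted p = 0.0609) or without a filter on low counts (adjusted p = 0.0775). Slc9a2, a sodium and proton exchanger, averaged 1.88, 7.5 and 4.43 CPM (difference -2.73 ± 0.258, adjusted p = 3.45e-07). Stra6 averaged 59, 24.5 and 10.1 CPM and had no detectable difference of steps (-0.00 ± 0.166, adjusted p = 0.993). Its log2 change was -1.29 ± 0.117 in the later step and -1.28 ± 0.091 in the earlier one.

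**Figure D4:**
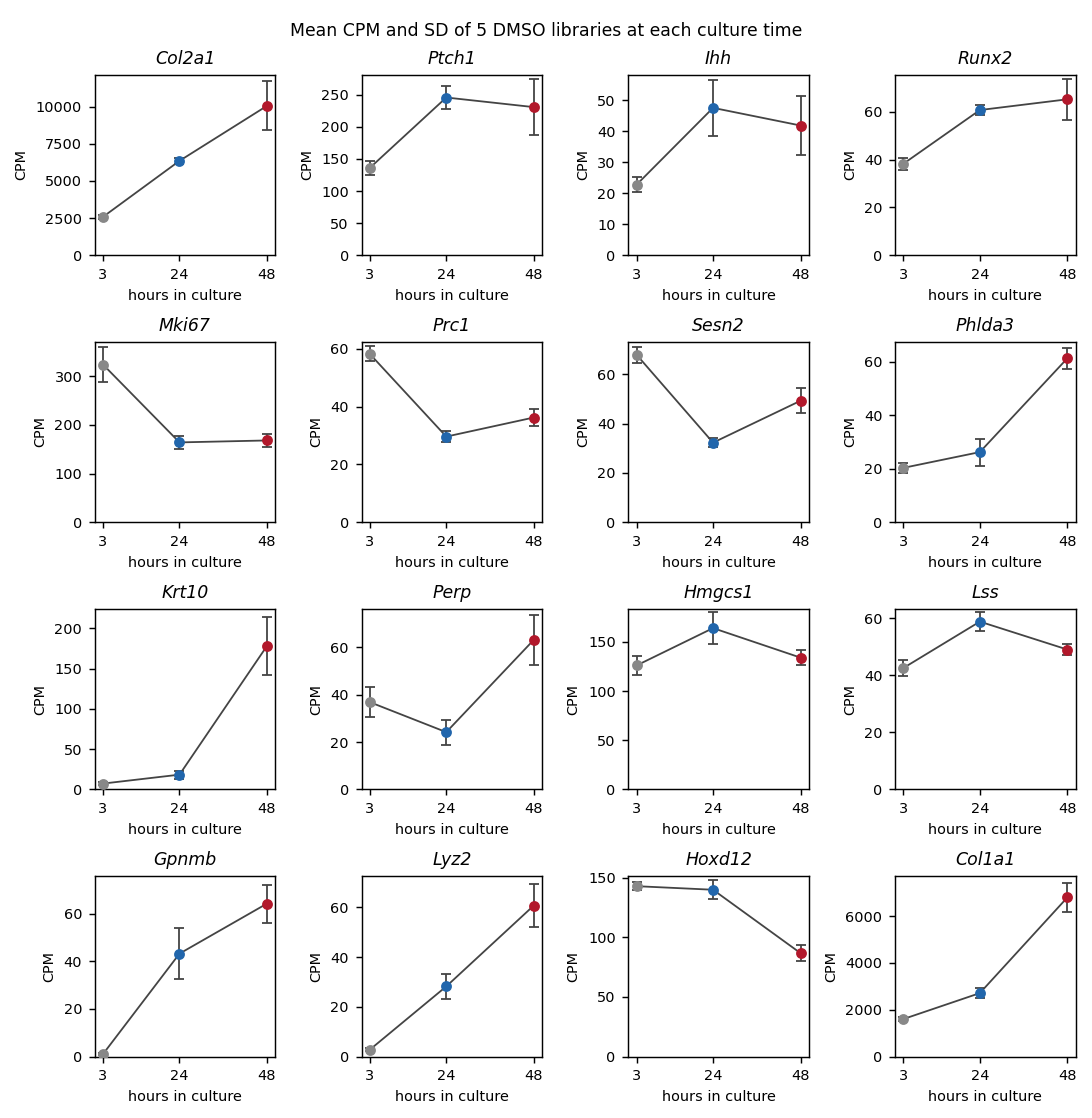
Mean ± SD CPM (vertical axes, linear from 0; n = 5 libraries each) of 16 genes in DMSO culture at 3, 24 and 48 h (horizontal axes). Mki67 drops to 164 CPM at 24 h and is at 168 CPM at 48 h, Col1a1 gains more after 24 h than before, Gpnmb gains most before 24 h, and Lss and Hmgcs1 peak at 24 h.

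The same step was measured in limbs cultured with BPS, which had their own 24 h and 48 h libraries. The strain labels of the 5 BPS 50 µM libraries of 48 h read CD2 to CD6, where those of all other libraries read CD1, and they were taken as CD1 here. Beside the 16% given above for DMSO, 4013 of 16638 genes were called between 48 and 24 h in BPS 10 µM (24.1%) and 4715 of 16559 in BPS 50 µM (28.5%). The difference of the step from that of DMSO was called for 0 of 17470 genes at 10 µM and 0 of 17481 at 50 µM by edgeR's quasi-likelihood test and by DESeq2. In the edgeR test 352 and 519 genes had an unadjusted p below 0.05. Both counts are below the share of 0.05 expected if no gene differed, for a reason that was not tested. Col10a1 had a log2 fold change of 2.71 ± 0.487 in DMSO, 2.73 ± 0.391 in BPS 10 µM and 2.74 ± 0.395 in BPS 50 µM. Krt1 had log2 fold changes of 3.31 ± 0.285 in DMSO, 3.66 ± 0.461 in BPS 10 µM and 3.75 ± 0.394 in BPS 50 µM. For Cdkn1a they were 1.09 ± 0.077 in DMSO, 1.19 ± 0.086 in BPS 10 µM and 1.04 ± 0.046 in BPS 50 µM. For Stra6 they were -1.29 ± 0.117 in DMSO, -1.24 ± 0.081 in BPS 10 µM and -1.26 ± 0.107 in BPS 50 µM. Lyz2 had 1.10 ± 0.120 in DMSO, 0.80 ± 0.067 in BPS 10 µM and 0.65 ± 0.158 in BPS 50 µM. Its differences from DMSO, -0.30 ± 0.143 at 10 µM (unadjusted p = 0.0435) and -0.45 ± 0.205 at 50 µM (unadjusted p = 0.0407), did not pass adjustment, where the smallest adjusted p was 1. The genes with the smallest unadjusted p and a symbol of their own were Hoxaas3, Isl1, Urah and Lypd3 at 10 µM and Fbxl22, Mmrn1 and Plat at 50 µM, and none passed. A gene that misses the threshold is not thereby shown to behave alike in the cultures. The shares of all genes that rose were 9.44% in DMSO, 13.5% in BPS 10 µM and 14.5% in BPS 50 µM, and the shares that fell were 6.55%, 10.6% and 13.9%. Beside these, of 34 bone matrix genes 22 rose in DMSO, 26 in BPS 10 µM and 27 in BPS 50 µM, and of 38 p53 list genes 18 rose in DMSO, 23 in BPS 10 µM and 20 in BPS 50 µM. Of 28 cholesterol genes 11 fell in DMSO, 6 in BPS 10 µM and 1 in BPS 50 µM, and the DMSO count was itself 6 or 7 with some single libraries left out, as given above. The difference from DMSO did not pass for any gene of that list.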

How the data were processed

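RNA of whole cultured forelimbs was sequenced after poly-A selection and random hexamer priming, per the labels' protocols. Tools in the submitters' processing notes are STAR 2.5, HTSeq 0.6.1, CASAVA 1.8 and DESeq2 (given as version 2), with mouse build mm10 and no roles given. Annotation and options: not given in the sources used here. Data came as 9 tables, each of 10 libraries. Per the file headers these tables hold raw read counts per gene, not normalised, which were the input here. The authors also deposited log2 fold changes with p-values and adjusted p-values; the authors' deposited table for this comparison called 3036 genes at an adjusted p below 0.05, of which 2660 were called here. Other deposited columns were not used here.

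Joining the tables on gene identifiers gave 34994 genes. Control counts occurring in several tables numbered 1319925, and 0 differed. The main test was edgeR 4.0.16 (R 4.3.3; quasi-likelihood, robust, TMM scaling, filterByExpr, two-sided) on the 10 libraries, with Benjamini-Hochberg adjustment over all tested genes; an SE is the log2 fold change divided by the square root of its F. Differences of steps were single contrasts over 15 or 20 libraries. CPM were scaled by TMM over all 45 libraries. On simulated counts for 16464 genes the test recovered 59.6% of 1.5-fold and 88.8% of 2-fold changes, with 14 false calls. Those counts followed the fitted dispersions, and far fewer genes were changed in them than were called in the data. The simulated rates therefore need not hold for the data. Every pair of libraries within a group differed beyond sampling noise (chi-square per degree of freedom at least 4.99). Separate cultures for the libraries of a group are not stated in the labels, and the p-values therefore rest on a spread that may be technical. Floors cover counting error only.

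The 43 gene lists were written from general knowledge, and members, lists and tests were chosen with earlier results of these data known. Their 1289 entries cover 1228 different genes, so some genes count in several lists and the lists' counts are not independent. Genes were named by rule: the 15 largest rises and falls with a mean of at least 1 CPM, the 4 smallest adjusted p of each list, a fixed set of skeletal, cell cycle and skin genes and cell type markers, and the 8 largest differences of steps in each direction. Some genes that the rule names are not reported here. Sfrp2, Hoxb7 and Sgms2 were named after their values were seen, as were the motif searches and the promoters shown. Promoter sequences are from RefSeq (GRCm38.p6), whose starts can differ from the gene starts of the deposited tables, by a large part of the window in Ibsp. Alternatives were DESeq2 1.42.0, limma-voom (limma 3.58.1), RLE size factors, all 45 libraries in the fit, no filter on low counts, a replicate block and leaving out each library.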

Additional observations from a re-analysis of the deposited data

Results flagged for a closer look

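In each group of 5 libraries, the highest and the lowest value of every gene named above was examined for a gap to the next library that takes up more than 0.71 of the group's range (Dixon's test). Of 302 such groups 19 held a library that far from the others; chance gives about 1 in 20. In the 24 h group, replicate 3 held 6 of these values, replicate 5 held 4, replicate 1 held 4 and replicate 4 held 1.

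At 48 h, replicate 1 was high for Chst12 (54.5 CPM, others 38.1 to 41 CPM) and Ucma (7.95 CPM, others 3.9 to 5.04 CPM). Replicate 3 of 48 h was high for Irs2 (94.7 CPM, others 62.1 to 71.2 CPM) and Runx2 (80 CPM, others 60 to 64.7 CPM).

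At 24 h, replicate 1 was high for Dsg1a (1.94 CPM, others 0.766 to 1.07 CPM), Gli2 (177 CPM, others 165 to 168 CPM) and Trp63 (23.2 CPM, others 13.8 to 15.8 CPM), and low for Erg (102 CPM, others 120 to 125 CPM). Replicate 3 of 24 h was high for Bglap (0.373 CPM, others 0.109 to 0.184 CPM), Ocstamp (0.587 CPM, others 0.0547 to 0.0633 CPM) and Mmp13 (1.23 CPM, others 0.122 to 0.342 CPM), genes of late cartilage and bone whose other 24 h values were at or near the floor of 3 reads. The same library was high for Egr2 (8.8 CPM, others 4.65 to 5.81 CPM) and Hoxd12 (154 CPM, others 135 to 139 CPM) and low for Cav3 (9.65 CPM, others 14.1 to 15.8 CPM). Replicate 4 of 24 h was high for Isl1 (1.29 CPM, others 0.626 to 0.766 CPM). Replicate 5 of 24 h was low for Aplnr (8.26 CPM, others 11 to 11.9 CPM), Ctsk (25.4 CPM, others 30.3 to 32 CPM), Ngfr (61.5 CPM, others 67.3 to 69.3 CPM) and Pthlh (6.18 CPM, others 9.49 to 10.7 CPM).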

How the results depend on the processing

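The 2670 genes called between DMSO 48 h and DMSO 24 h became 3055 with DESeq2, 2654 with RLE size factors, 2670 with limma-voom and 2531 without a filter on low counts, and 4063 with all 45 libraries in the fit, of which 1847 were lower. Leaving out libraries in turn gave 1957 to 2891 calls, 1243 to 1630 higher and 714 to 1261 lower, with the fewest without 48 h replicate 2 (714 lower) and 48 h replicate 4 (724 lower). Of the 2670 genes, 1929 to 2435 were called in the same direction with a library left out and 2305 to 2661 under the other alternatives, and 0 in the opposite direction. Without a filter the split was 1700 higher and 831 lower, against 1576 and 1094 with it. The 2004 differences of steps ranged from 1468 to 2249 with a library left out. The difference of the step at BPS 10 µM stayed at 0 genes under all alternatives run, with a library left out 0 to 0, and at BPS 50 µM it was 0 to 1 genes, the 1 without BPS 50 µM 24 h replicate 5. With the replicate number as a block 3541 genes were called between 48 and 24 h. The labels do not say that the numbers pair the libraries, and same-numbered DMSO 48 h and DMSO 24 h libraries had correlations of 0.219, 0.017, 0.194, -0.012 and 0.299. Lacking such a statement, the main fit did not treat the libraries as pairs. The correlations do not settle the matter. While 2 of the 5 were at or below 0.1, replicates 1, 3 and 5 correlated best with their own number. Between BPS and DMSO libraries of 24 h all 5 numbers exceeded 0.1 at both doses. With the block, Sox6 (adjusted p = 0.00426), Mmp13 (0.0156), Krt14 (0.0135) and Krt5 (0.0409) passed, endothelial rises numbered 9 against 3, BMP, GDF and TGF-beta falls 16 against 9, Wnt falls 7 against 4 and cell cycle rises 6 against 3. Of 124 named genes that passed, 118 did so under every alternative, and Hoxb7, Sfrp2, Sgms2, Gpnmb, Mmrn1 and mt-Rnr2 did not. Many of the named genes were picked for a small adjusted p or a large change. Their share therefore does not stand for all 2670 called genes. Without a filter on low counts 1 p53 list gene and 1 gene of glycosaminoglycan synthesis fell, against 3 each with it. The cause of these shifts was not tested. At 3 reads a level cannot be told from 0, which limits Bglap and Ocstamp, Calm4 at 24 h, and Mmp13 in most 24 h libraries.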
